A study of Mus musculus with 40 samples.

Results

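Cd24a, Tspan8, Ces2g, Selenom, Gpx8 and Vldlr are 6 mouse genes that were selected on a readout, a difference in their RNA between HIRA knockout (KO) and wild-type (WT) haematopoietic stem cells (HSCs) in 2 cohorts of mice. Their rows were found by symbol in 6 expression tables of 16344 to 26640 genes each. They carry 7 symbols, since Selm in the first cohort is Selenom in the other. All 6 genes had a row in 5 of the tables, and Gpx8 had none in the GFP-high MPP table. The values that chose them were the KO and WT levels in HSCs, so those levels are given here as a description and no p-value from HSCs is used as support, and multipotent progenitors (MPPs) are the populations in which KO was tested against WT. The genes were also picked with the MPP results known, so the MPP tests are not blind to that choice.

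The 40 libraries are bulk RNA-seq of HSCs and MPPs sorted from the bone marrow of adult C57BL/6 mice. In the first cohort, 4 WT and 4 KO libraries of each cell type came from 2500 sorted cells, taken 1 week after the first of 2 doses of 20 µg poly(I:C). The other cohort had 3 WT and 3 KO libraries for each of GFP-high HSCs, GFP-low HSCs, GFP-high MPPs and GFP-low MPPs. The protocol gives its mice as carrying Hirafl/fl and Mx1-Cre, together with Rosa26-M2rtTA and TetOP-H2B-GFP. They drank doxycycline (2 mg/ml, sweetened with sucrose at 10 mg/ml) for 6 weeks, had 2 doses of 20 µg poly(I:C), and were killed 15 days after the last dose, at the end of a 17-day chase. Mx1-Cre is switched on by the interferon response to poly(I:C) and is not limited to blood cells. A cell that divides during the chase dilutes its H2B-GFP, so GFP-high cells have divided less than GFP-low cells. The alleles of the WT mice, the ages of the mice, and whether HSC and MPP libraries with one number share a mouse are not given in the sources used here. The libraries are called biological replicates there with no animal named, so p-values measure the spread between these samples.

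HIRA delivers the histone variant H3.3 to chromatin outside DNA replication. The 6 genes belong to different parts of cell biology. Cd24a encodes a small sugar-rich protein held on the cell surface by a lipid anchor and widely used to sort blood progenitors, and Tspan8 encodes a tetraspanin, a membrane protein that organises other surface proteins. Selenom and Gpx8 encode proteins of the endoplasmic reticulum (ER), a thioredoxin-like selenoprotein and a peroxidase of the glutathione peroxidase family. Ces2g encodes a carboxylesterase, which cleaves ester bonds in lipids and drugs, and Vldlr encodes the very low density lipoprotein receptor, which takes up lipid particles and binds reelin.

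The genes do not form a cluster in the genome. On GRCm38, Cd24a lies at chr10:43578284-43584265 and Tspan8 far from it on the same chromosome, at chr10:115816832-115849893. Ces2g lies at chr8:104961718-104969537, Selenom at chr11:3514684-3517351 and Vldlr at chr19:27216484-27254231. Gpx8, at chr13:113042753-113046410, is the 1 gene of the 6 on the minus strand. All are protein coding. Tspan8 and Gpx8 each overlap 1 other annotated gene. The partner of Tspan8 had no row in any table, and that of Gpx8, Cdc20b, had a row in total MPPs only, at 0.0416 FPKM or less. Whether reads were counted by strand is not given in the sources used here, and Ces2g belongs to a family of similar genes, so reads of close copies could be split or shared.

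The RefSeq promoter table held windows for 5 of the 6 genes. Their upstream sequences are shown because they differ in CG content, a property that had no part in choosing the genes. Each of the 4 runs below is the 120 bases before the first annotated start in GRCm38.p6, read 5′ to 3′ on the strand of the gene, with CG dinucleotides in capitals.
Ces2g, chr8:104961476-104961595, plus strand: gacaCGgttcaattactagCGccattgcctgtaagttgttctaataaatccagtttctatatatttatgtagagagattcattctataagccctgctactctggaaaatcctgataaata
Vldlr, chr19:27216360-27216479, plus strand: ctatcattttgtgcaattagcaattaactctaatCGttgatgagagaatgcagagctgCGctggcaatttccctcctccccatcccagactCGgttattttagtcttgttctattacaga
Selenom, chr11:3514564-3514683, plus strand: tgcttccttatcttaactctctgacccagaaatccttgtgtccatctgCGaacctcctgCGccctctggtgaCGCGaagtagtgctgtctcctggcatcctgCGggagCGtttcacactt
Gpx8, chr13:113046431-113046550, minus strand: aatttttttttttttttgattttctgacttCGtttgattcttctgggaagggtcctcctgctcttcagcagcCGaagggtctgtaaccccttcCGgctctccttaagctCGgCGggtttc
These runs hold 2 CG in Ces2g, 3 in Vldlr, 6 in Selenom and 5 in Gpx8. Over whole windows of 300 bases, the ratio of observed to expected CG was 0.253 in Tspan8 and 0.30 in Ces2g, below the median of 0.384 over 32851 windows. It was 0.612 and 0.664 in the 2 windows of Vldlr, 0.714 in Selenom and 0.852 in Gpx8, all above that median. So the 5 genes do not share one kind of promoter by this measure. Of 4 motifs searched on both strands, GATAA stood in the windows of Ces2g and Selenom and in 25.4% of all windows. TATAAA stood in that of Selenom and in 13.6% of all. CCAAT stood in those of Ces2g and Vldlr and in 37.4% of all, and GGGCGG in that of Vldlr and in 35.7% of all. No motif stood in more than 2 of the 5 genes.

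The values are FPKM, fragments per kilobase of transcript and unit of depth, scaled by the authors within each table. A level can therefore be set beside that of another gene, but levels in different tables are compared as values only. Whole reads could be worked back from the FPKM steps for all 26640 genes of the total HSC table, and all genes of the others, to within 0.01 read. Without ribosomal RNA rows they came to 18.28 to 32.53 M per library in the first cohort and 5.87 to 9.65 M in the GFP cohort. All 12 HSC markers listed, among them Procr, Mecom and Hlf, had values above 0 in each HSC table. They were above 0 in each MPP table too, so this does not tell HSCs from MPPs. Hira itself did not separate the groups in any table. It was 0.84 to 1.64 FPKM in WT and 0.72 to 1.32 in KO total HSCs, and the protocol does not say which exons were deleted, so the row checks no label and KO below means the libraries labelled KO. The KO replicate 3 libraries of GFP-low HSCs and of GFP-high MPPs stood apart. Their 9 neutrophil markers summed to 28880 and 23940 FPKM, where the other libraries of those 2 tables had 2064 to 6273. The log2 differences in those 2 tables are given with and without them. Marker sums and the correlations within the GFP cohort include them.

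In HSCs, Cd24a, Tspan8, Selenom, Gpx8 and Ces2g had a higher mean in KO in all 3 tables, and Vldlr had a lower one. In total HSCs no KO value of any of the 6 genes fell within the WT range. In the GFP cohort the separation was complete in both tables for Cd24a and Selenom only. In the text below, log2 differences are KO minus WT means of log2(FPKM + 1), which understates the fold of low genes. In bulk RNA, more cells of a type and more RNA per cell cannot be told apart.

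**Figure D1:**
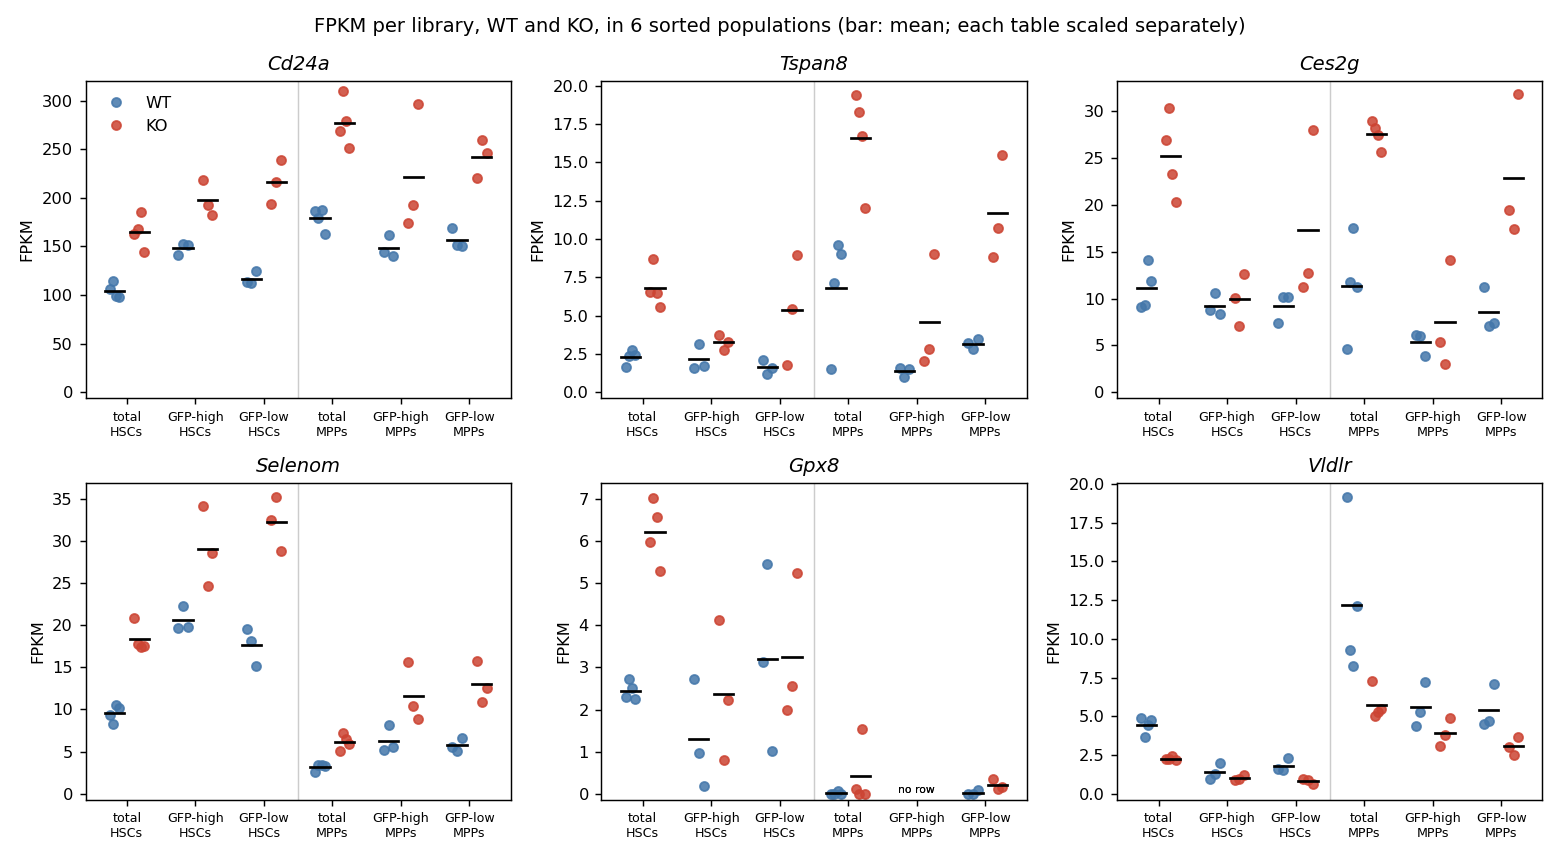
FPKM (y axis, linear) of each gene in every library of the 6 sorted populations (x axis), with WT in blue, KO in red and a black bar at each mean. Cd24a and Selenom have all KO points above all WT points in each population, whereas Gpx8 is above 2 FPKM in every total HSC library and under 2 in every MPP library that lists it.

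Cd24a was the most abundant of the 6 genes. In total HSCs it was 106, 115, 98.8 and 98.0 FPKM in WT and 163, 168, 185 and 144 in KO. The lowest KO library was above the highest WT library, and the means were 104 ± 7.79 and 165 ± 17.1 (SD, n = 4), a difference of 0.66 on the log2 scale. In GFP-high HSCs it was 141, 152 and 152 in WT and 218, 193 and 182 in KO, a difference of 0.41. In GFP-low HSCs it was 114, 112 and 124.5 in WT and 194, 216 and 239 in KO, a difference of 0.88. No Cd24a value overlapped between WT and KO in any HSC table, and without KO replicate 3 the difference in GFP-low HSCs was 0.81.

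Tspan8 was low in WT HSCs. In total HSCs it was 1.61, 2.38, 2.75 and 2.40 FPKM in WT and 6.51, 8.67, 6.46 and 5.56 in KO. The means were 2.29 ± 0.479 in WT and 6.80 ± 1.32 in KO (SD, n = 4), with no overlap, a ratio of 2.98 and a log2 difference of 1.25. In GFP-high HSCs it was 1.54, 3.17 and 1.71 in WT against 3.74, 2.77 and 3.30 in KO, and in GFP-low HSCs 2.09, 1.20 and 1.59 against 1.76, 5.41 and 8.96. Both GFP tables overlapped, each with 1 WT and 1 KO library inside the range of the other group. The differences were 0.47 and 1.11, and the second was 0.69 without KO replicate 3, its highest library. These values rest on 26 to 150 reads per library.

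Selenom was higher in KO in every HSC table without overlap. In total HSCs it was 9.30, 8.24, 10.6 and 10.2 FPKM in WT and 20.8, 17.8, 17.4 and 17.5 in KO, a ratio of 1.92. In GFP-high HSCs it was 19.6, 22.2 and 19.8 against 34.1, 24.6 and 28.5, a ratio of 1.41. In GFP-low HSCs it was 19.6, 18.1 and 15.2 against 32.5, 35.3 and 28.8, a ratio of 1.83. The log2 differences were 0.87, 0.47 and 0.84, and the one in GFP-low HSCs was 0.91 without KO replicate 3. Selenom also stood at a higher FPKM in the GFP cohort's HSCs than in the first cohort's, in tables that were scaled separately.

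Gpx8 separated the groups in the first cohort only. In total HSCs it was 2.29, 2.72, 2.51 and 2.24 FPKM in WT and 5.97, 7.03, 6.56 and 5.29 in KO, a log2 difference of 1.06 with 55 to 204 reads per library. In GFP-high HSCs it was 2.73, 0.971 and 0.174 in WT and 4.11, 0.793 and 2.22 in KO. In GFP-low HSCs it was 3.13, 5.46 and 1.01 in WT and 1.98, 2.55 and 5.24 in KO. WT and KO were interleaved in both GFP tables, where the libraries held 2 to 73 reads of Gpx8. The log2 difference in GFP-high HSCs was 0.59, between 0.19 (without WT replicate 3) and 0.98 (without KO replicate 2) when 1 library was left out. In GFP-low HSCs it was 0.10, and it was 0.49 without WT replicate 2, -0.21 without KO replicate 3 and -0.35 without WT replicate 3. The GFP cohort thus gave no separation of the groups for Gpx8, at few reads per library.

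Ces2g also overlapped in GFP-high HSCs. In total HSCs it was 9.08, 9.31, 14.2 and 11.8 FPKM in WT and 27.0, 30.4, 23.3 and 20.3 in KO, a ratio of 2.27. In GFP-high HSCs it was 8.82, 10.6 and 8.32 in WT and 10.1, 7.08 and 12.6 in KO, which overlapped, and the log2 difference of 0.07 became -0.11 without KO replicate 3 and 0.27 without KO replicate 2. In GFP-low HSCs it was 7.39, 10.2 and 10.2 in WT and 11.2, 12.8 and 28.0 in KO. These did not overlap, but the difference of 0.74 was 0.35 without KO replicate 3, which holds the value of 28.0.

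Vldlr was the 1 gene that was lower in KO. In total HSCs it was 4.89, 3.66, 4.47 and 4.73 FPKM in WT and 2.24, 2.24, 2.41 and 2.21 in KO. The WT mean of 4.44 ± 0.549 was 1.95 times the KO mean of 2.28 ± 0.0927 (SD, n = 4), with 554 to 1412 reads per library. In GFP-high HSCs it was 0.940, 1.27 and 2.00 in WT and 0.895, 0.972 and 1.18 in KO, which overlapped. In GFP-low HSCs it was 1.60, 1.51 and 2.31 in WT and 0.965, 0.915 and 0.626 in KO, which did not. There the gene passed the filter of 1 FPKM in 3 libraries through its WT libraries alone. The log2 differences were -0.73, -0.23 and -0.61. Where the gene was still tested with 1 library left out, the second lay between -0.38 (without WT replicate 1) and -0.19 (without KO replicate 1). The last was -0.52 without KO replicate 3, and the gene was no longer tested there once any WT library was left out.

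Counted over the 6 genes, all of which were tested in each HSC table, 6 of 6 had an adjusted p under 0.05 in total HSCs (limma, Benjamini-Hochberg adjustment), beside 0.124% of all genes. None of the 6 did in GFP-high HSCs, beside 0.0276% of all genes, or in GFP-low HSCs, beside 0% of all genes. In GFP-high HSCs 1124 of 10850 genes had an unadjusted p under 0.05 and limma's voom on recovered reads called 2 genes. In GFP-low HSCs these numbers were 917 of 10705 and 0. WT and KO did not overlap for 6 of 6 in total HSCs, 2 of 6 in GFP-high HSCs and 4 of 6 in GFP-low HSCs, beside 6.2%, 16.1% and 14.1% of all genes. Since these contrasts chose the genes, the counts only describe them and nothing is read from them.

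In MPPs, the same direction was seen in all 3 tables for the 5 genes that were tested: Cd24a, Tspan8, Selenom and Ces2g were higher in KO and Vldlr was lower. The test was passed in GFP-low MPPs by Tspan8, at 3.70 times the WT mean, and by Selenom, at 2.25 times. No member passed it in total MPPs or in GFP-high MPPs. Gpx8 passed the filter on low values in none of the 3 MPP tables.

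Tspan8 rose in KO GFP-low MPPs. It was 3.20, 2.82 and 3.44 FPKM in WT and 8.80, 10.7 and 15.5 in KO, with 60 to 313 reads per library. The lowest KO value was above 2 times the highest WT value, and the log2 difference was 1.58, with a 95% interval of 1.14 to 2.02 and an adjusted p of 0.0238 (limma). The call rested on few samples: leaving out 1 library gave adjusted p of 0.0140 to 0.133, and it was lost without KO replicate 2 (0.0993) or 3 (0.0521), or WT replicate 1 (0.0516), 2 (0.133) or 3 (0.130). In total MPPs it was 1.48, 7.10, 9.59 and 9.04 in WT and 19.4, 18.3, 16.7 and 12.1 in KO. These did not overlap, and the difference of 1.35 (95% interval 0.49 to 2.22) had an adjusted p of 0.142 (limma). It was 0.87 without WT replicate 1, the library at 1.48. In GFP-high MPPs it was 1.60, 0.962 and 1.53 in WT and 2.02, 2.80 and 8.99 in KO. The difference there was 1.05 with an adjusted p of 0.619 (limma), and 0.53 without KO replicate 3, the library at 8.99.

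Selenom also rose in KO GFP-low MPPs. It was 5.56, 5.13 and 6.65 FPKM in WT and 15.7, 10.9 and 12.5 in KO, all KO libraries above all WT libraries. The log2 difference was 1.04, with a 95% interval of 0.68 to 1.40 and an adjusted p of 0.0463 (limma). This call did not survive the loss of any single library: the adjusted p was 0.0760 without KO replicate 1, 0.0993 without KO replicate 2 or 3, 0.145 without WT replicate 1, 0.224 without WT replicate 2 and 0.136 without WT replicate 3. The difference itself stayed between 0.91 and 1.15. In total MPPs Selenom was 2.55, 3.42, 3.41 and 3.30 in WT and 5.03, 7.26, 6.52 and 5.86 in KO, and in GFP-high MPPs 5.15, 8.12 and 5.54 against 15.6, 10.5 and 8.88. WT and KO did not overlap in either, and the differences of 0.78 and 0.78 had adjusted p of 0.0524 and 0.546 (limma). Without KO replicate 4 the first passed the threshold, at 0.0443. Without KO replicate 3 the difference in GFP-high MPPs was 0.94.

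Cd24a did not pass the test in any MPP table, although all KO libraries lay above all WT libraries in each. In total MPPs it was 187, 179.7, 187 and 163 FPKM in WT and 269, 309.9, 279.8 and 251 in KO. In GFP-high MPPs it was 144, 162 and 139.7 against 174, 193 and 297, and in GFP-low MPPs 169, 152 and 150.0 against 220.3, 260.0 and 246.5. The log2 differences lay close together, at 0.63 (95% interval 0.38 to 0.88), 0.53 (0.09 to 0.98) and 0.62 (0.38 to 0.87). Their adjusted p were 0.0514, 0.597 and 0.0652 (limma). Without KO replicate 4 the adjusted p in total MPPs was 0.0249, and without KO replicate 3 the difference in GFP-high MPPs was 0.30.

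Ces2g did not pass the test in any MPP table either. In total MPPs it was 4.56, 11.8, 17.6 and 11.3 FPKM in WT and 29.0, 28.2, 27.5 and 25.7 in KO, a difference of 1.34 (95% interval 0.70 to 1.98, adjusted p 0.0702 by limma). KO libraries agreed closely there, whereas WT libraries ranged widely. Without WT replicate 3 the adjusted p was 0.0401, and without WT replicate 1, at 4.56, the difference was 1.00. In GFP-low MPPs it was 11.2, 7.10 and 7.35 in WT and 19.5, 17.4 and 31.8 in KO, a difference of 1.30 (0.76 to 1.85, adjusted p 0.0859 by limma). In GFP-high MPPs it was 6.12, 5.98 and 3.91 in WT and 5.37, 3.02 and 14.1 in KO, which overlapped. The difference of 0.22 there became -0.30 without KO replicate 3, the library at 14.1, and 0.65 without KO replicate 2.

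Vldlr was lower in KO in each MPP table and passed the test in none. In total MPPs it was 19.2, 9.25, 8.24 and 12.1 FPKM in WT and 7.28, 5.01, 5.26 and 5.50 in KO, a difference of -0.91 (95% interval -1.40 to -0.41, adjusted p 0.0994 by limma). WT replicate 1, at 19.2, stood above the rest, and without it the difference was -0.68. In GFP-low MPPs it was 4.50, 4.72 and 7.06 in WT and 3.01, 2.48 and 3.70 in KO, a difference of -0.65 (-1.08 to -0.22, adjusted p 0.234). In GFP-high MPPs it was 4.35, 5.27 and 7.21 against 3.08, 3.78 and 4.90, which overlapped, a difference of -0.42 (-0.88 to 0.04, adjusted p 0.736). Both adjusted p are from limma. The difference in GFP-high MPPs was -0.56 without KO replicate 3 and -0.25 without WT replicate 3.

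Gpx8 was at or near 0 in MPPs. In total MPPs it was listed at 0 in WT replicates 1, 2 and 4 and in KO replicates 2 and 4, and at 0.0748 in WT replicate 3, 0.125 in KO replicate 1 and 1.55 in KO replicate 3. In GFP-low MPPs it was 0, 0 and 0.0886 in WT and 0.354, 0.102 and 0.161 in KO, which stands for 0 to 5 reads. Among WT populations its mean was 2.44 ± 0.220 FPKM in total HSCs (SD, n = 4) and 0.0187 in total MPPs. With the filter on low values, WT was not compared with KO at these levels. Without it the log2 differences were 0.35 in total MPPs and 0.22 in GFP-low MPPs, with adjusted p of 0.697 and 0.445 (limma).

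In GFP-low MPPs the test was passed by 2 of the 5 genes, beside 0.32% of all 10621 genes (34, of which 24 were higher). The 5 genes were all at an unadjusted p under 0.05, and voom on the recovered reads called 3 of them, Tspan8, Cd24a and Ces2g. In total MPPs 0 of 5 passed limma's test, beside 0.108% of all genes, with 5 at an unadjusted p under 0.05 and 2 called by voom. In GFP-high MPPs 0 of 5 passed it, beside 0% of all genes, with 3 at an unadjusted p under 0.05 and 0 called by voom. WT and KO did not overlap for 5 of 5 in total MPPs, 3 of 5 in GFP-high MPPs and 5 of 5 in GFP-low MPPs, beside 9.92%, 13.3% and 19.1% of all genes. The median size of the difference over the 5 genes was 0.91, 0.54 and 1.04, beside 0.176, 0.128 and 0.156 over all genes tested. The genes were picked for differing in KO HSCs, so these medians describe them and are no test.

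**Figure D2:**
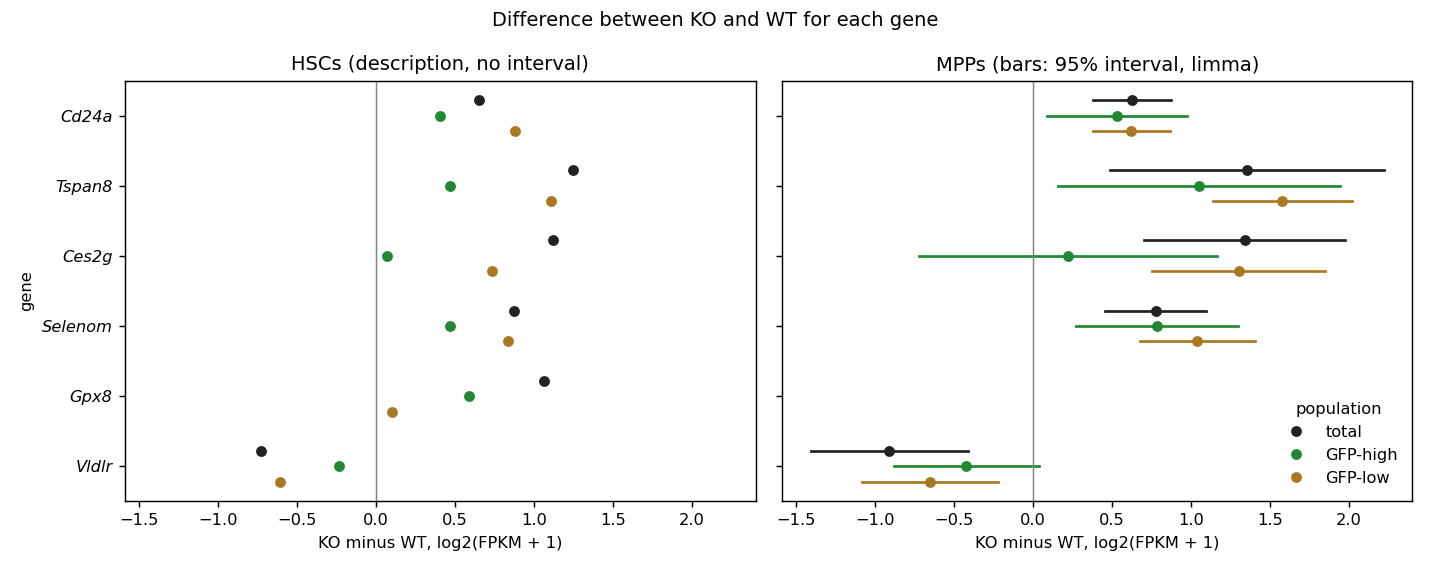
KO minus WT difference in log2(FPKM + 1) (x axis) for each gene (y axis), with HSC populations at left as points and MPP populations at right with 95% intervals from limma. The points of Vldlr lie left of 0 in all 6 populations and those of the other genes lie right of it. In GFP-high MPPs the intervals of Ces2g and of Vldlr reach across 0.

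Whether the KO effect differed between GFP-low and GFP-high MPPs was tested directly, as the difference of the 2 effects. The libraries were treated as independent, although it is not given whether GFP-high and GFP-low libraries with one number share a mouse. Ces2g had the largest difference, 1.08 in favour of GFP-low cells (95% interval -0.09 to 2.25). Those of the other genes were 0.53 for Tspan8 (-0.53 to 1.58), 0.26 for Selenom (-0.38 to 0.89), 0.09 for Cd24a (-0.42 to 0.59) and -0.23 for Vldlr (-0.86 to 0.40). With the replicate number as a block in the fit, the intervals were -0.04 to 2.20 for Ces2g and -0.33 to 1.38 for Tspan8. They were then -0.41 to 0.92 for Selenom, -0.42 to 0.59 for Cd24a and -0.64 to 0.18 for Vldlr, and 0 of the 5 genes passed. The differences moved with single libraries. Without KO replicate 3 of GFP-high MPPs, which stood apart, they were 1.61 for Ces2g, 1.05 for Tspan8, 0.095 for Selenom, 0.32 for Cd24a and -0.092 for Vldlr. Leaving out each of the 12 libraries in turn gave 0.65 (GFP-high KO replicate 2) to 1.61 for Ces2g, 0.18 (GFP-high KO replicate 1) to 1.05 for Tspan8, 0.081 (GFP-high WT replicate 2) to 0.47 (GFP-high KO replicate 1) for Selenom, -0.064 (GFP-high KO replicate 1) to 0.32 for Cd24a and -0.40 (GFP-high WT replicate 3) to -0.057 (GFP-low WT replicate 3) for Vldlr. The adjusted p was 0.999 for each with all libraries (limma), and 0 of 10417 genes passed, or 0%, with 281 at an unadjusted p under 0.05, none of them one of the 5 genes, and 0 by voom. The Tspan8 and Selenom calls in GFP-low MPPs are therefore not shown to be particular to divided cells, and intervals this wide do not show equal effects.

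The order of the levels over populations differed between the genes. In WT, mean Selenom was highest in GFP-high HSCs (20.6 ± 1.46 FPKM, SD, n = 3), then GFP-low HSCs (17.6 ± 2.23), total HSCs (9.58 ± 1.04), GFP-high MPPs (6.27 ± 1.62), GFP-low MPPs (5.78 ± 0.780) and total MPPs (3.17 ± 0.419). Of these neighbours, the libraries of GFP-high and GFP-low MPPs overlapped and the others did not. Vldlr had nearly the reverse order, from total MPPs (12.2 ± 4.92) over GFP-high MPPs (5.61 ± 1.46), GFP-low MPPs (5.43 ± 1.42) and total HSCs (4.44 ± 0.549) to GFP-low HSCs (1.81 ± 0.438) and GFP-high HSCs (1.41 ± 0.543). Here total MPPs stood apart from GFP-high MPPs and total HSCs from GFP-low HSCs, and the rest overlapped their neighbours. So in WT cells the ER selenoprotein was at a higher FPKM in HSCs than in MPPs, and the lipoprotein receptor at a higher FPKM in MPPs than in HSCs, within each cohort. Cd24a means ran from 104 in total HSCs to 179 in total MPPs, and those of Tspan8 from 1.36 in GFP-high MPPs to 6.80 in total MPPs. Ces2g means ran only from 5.34 in GFP-high MPPs to 11.3 in total MPPs. These orders set separately scaled tables side by side and were not tested.

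No other gene of the same pathways passed limma's test in any of the 6 tables. The lists cover selenoproteins and their synthesis, oxidative folding in the ER, the LDL receptor family with reelin signalling, carboxylesterases, tetraspanins, and surface proteins with a lipid anchor together with Cd24a receptors. A selenoprotein gene that is also on the folding list is counted in both, so the totals below are list entries. Leaving out the 6 genes, 0 of 112 passed in total MPPs (limma), with 23 at an unadjusted p under 0.05 (20.5%, beside 16.6% of all genes) and 1 called by voom, the receptor Lrp5. In GFP-high MPPs 0 of 113 passed, with 12 at an unadjusted p under 0.05 (10.6%, beside 7.09%), and in GFP-low MPPs 0 of 114, with 17 (14.9%, beside 12.3%), and voom called 0 in both. In total, GFP-high and GFP-low HSCs 0 of 109, 0 of 112 and 0 of 114 passed, with 22 (20.2%, beside 10.1%), 14 (12.5%, beside 10.4%) and 7 (6.14%, beside 8.57%) at an unadjusted p under 0.05 and 0 by voom. Tetraspanins, the family of Tspan8, gave many of these: 10 of 19 in total HSCs, 6 of 19 in GFP-high HSCs, 5 of 20 in GFP-low HSCs, 7 of 19 in total MPPs, 4 of 20 in GFP-high MPPs and 5 of 20 in GFP-low MPPs. The LDL receptor list gave 2 of 15 in total MPPs and 0 in the other tables, and the carboxylesterases gave 0 in all 6.

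By list, the median log2 difference of 26 selenoprotein genes in GFP-low MPPs was -0.001 without Selenom, with 13 above 0 and 13 below, beside a median of 0.002 over all genes. That of 27 genes of oxidative folding was 0.045, with 16 above 0. The 16 genes of the LDL receptor family and reelin signalling had a median of -0.08, with 5 above 0. The 20 tetraspanins had a median of 0.215, with 12 above 0, and the 23 lipid-anchored surface proteins and receptors one of -0.06, with 10 above 0. Only 2 other carboxylesterase genes were tested, both above 0, at a median of 0.16. In total MPPs the medians were 0.013, 0.046, -0.06, -0.13, 0.19 and 0.08 in the same order. In GFP-high MPPs they were 0.016, 0.152, -0.04, 0.184, 0.184 and 0.133. There 17 of 20 tetraspanins were above 0, against 7 of 19 in total MPPs. The tetraspanin medians in total, GFP-high and GFP-low HSCs were 0.011, 0.186 and 0.206.

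Markers of HSCs and of other cell types were summed in each library as a description. The 13 erythroid markers listed in the GFP tables include globins, receptors, transcription factors and carbonic anhydrases of the red cell lineage. They summed to 901 to 1410 FPKM in WT and 1911 to 2316 in KO GFP-low MPPs. Of the 13 markers, 3 rose there (limma): Gata1, the lineage's transcription factor (log2 difference 1.62, adjusted p 0.0350), Epor, the erythropoietin receptor (1.32, adjusted p 0.0228), and Car2, a carbonic anhydrase (0.83, adjusted p 0.0447). Car2 alone had a mean of 462 FPKM in WT and 826 in KO there, a large part of these sums. The sums were also apart in GFP-high MPPs (751 to 1009 against 1059 to 2002) and GFP-low HSCs (837 to 866 against 1332 to 2467). They overlapped in total MPPs (499 to 4013 against 1687 to 7308), where all 14 markers had a difference above 0, and in total HSCs (879 to 2472 against 1026 to 5478). In total HSCs 1 of 13 tested markers rose, Tspo2, an erythroid membrane protein (limma, 1.56, adjusted p 0.0473), with 5 at an unadjusted p under 0.05, and voom called 3, Tspo2, Klf1 and Car2. In GFP-high HSCs they overlapped too (907 to 1295 against 990.3 to 1225), with 3 of 13 markers above 0. No erythroid marker that was listed was at 0 in every library of a table, and Hbb-bs was not listed in the GFP tables.

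The libraries with the extreme erythroid sums were in part those with the extreme Tspan8 and Ces2g values. In total MPPs, WT replicate 1 had the lowest erythroid sum (499), Tspan8 (1.48) and Ces2g (4.56). The highest erythroid sum there was in KO replicate 2 (7308), whereas the highest Tspan8 (19.4) and Ces2g (29.0) were in KO replicate 1. In GFP-low HSCs and also GFP-high MPPs, KO replicate 3 had the highest erythroid sum (2467 and 2002), the highest neutrophil sum, and the highest Cd24a, Tspan8 and Ces2g. In total HSCs the erythroid sums of WT and KO overlapped, and KO replicate 3 was at 1053. There KO replicate 2 had the highest erythroid sum (5478), Tspan8 (8.67) and Ces2g (30.4). WT replicate 1 went the other way, with the highest WT erythroid sum (2472) but the lowest Tspan8 (1.61) and Ces2g (9.08). Selenom was not highest in KO replicate 3 of either GFP table. The part of erythroid or neutrophil RNA in the KO differences of the 6 genes was not tested.

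**Figure D3:**
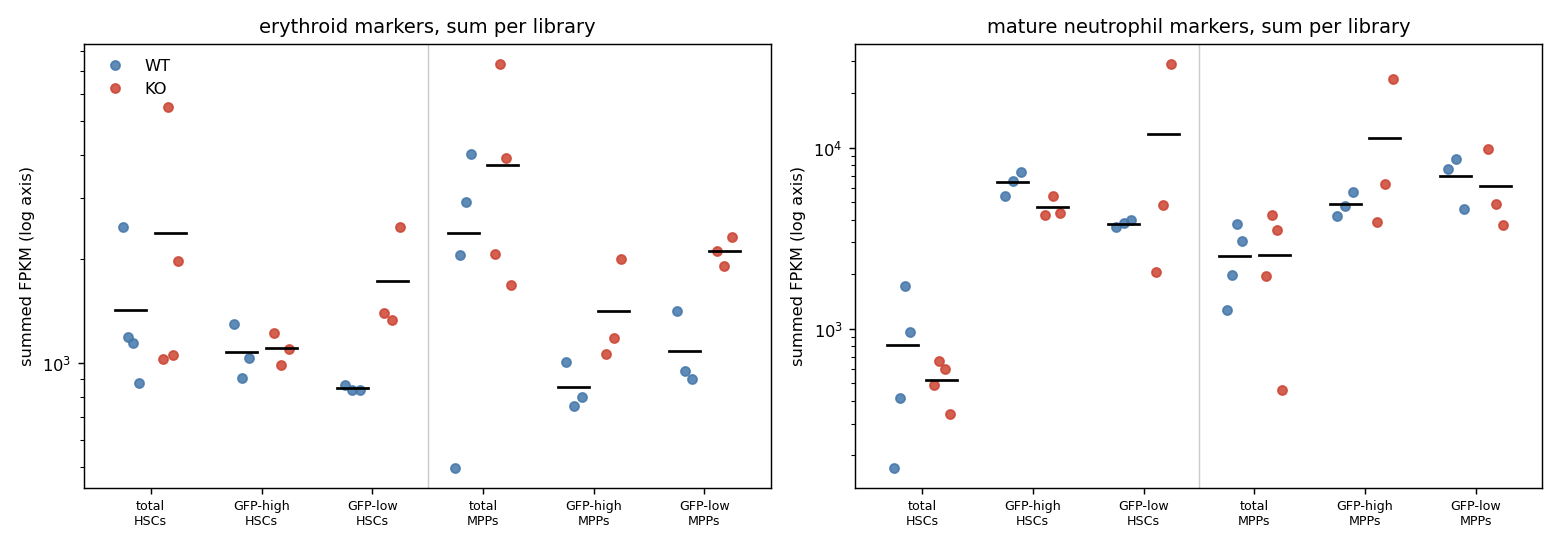
Summed FPKM (y axis, logarithmic) of erythroid markers (left) and mature neutrophil markers (right) in every library of the 6 populations (x axis), with WT in blue, KO in red and a black bar at each mean. KO replicate 3 stands alone on the neutrophil side at 28880 in GFP-low HSCs and 23940 in GFP-high MPPs, and KO erythroid sums lie above WT in GFP-low HSCs and both GFP MPP populations.

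Of the other 10 marker lists, several also separated KO from WT. Complete separation was also found for 6.2% (total HSCs) to 19.1% (GFP-low MPPs) of all single genes, so these sums are given as a description. Megakaryocyte sums were higher in KO in total HSCs (978 to 1194 against 1292 to 1760 FPKM), where Ppbp rose (limma, log2 difference 1.21, adjusted p 0.0275), in GFP-high HSCs (109 to 121 against 135 to 201), in GFP-low HSCs (181 to 284 against 430.3 to 492) and in GFP-high MPPs (63.6 to 70.2 against 71.2 to 128). Mast cell and basophil sums were higher in KO in total HSCs (10.5 to 11.9 against 13.2 to 19.1) and total MPPs (7.31 to 16.6 against 22.7 to 73.6), where the mast cell protease Cpa3 rose (limma, 1.40, adjusted p 0.0161). Macrophage sums were higher in KO in total HSCs (17.3 to 23.6 against 32.6 to 35.8) and GFP-high MPPs (17.1 to 22.6 against 23.5 to 35.1). The neutrophil sum was lower in KO in GFP-high HSCs (5428 to 7304 against 4268 to 5416), and the HSC marker sum was lower in KO in GFP-low MPPs (487 to 526.2 against 365 to 455) and total MPPs (375 to 451 against 286 to 340.0). Dendritic cell sums were lower in KO in total MPPs (72.1 to 80.7 against 46.1 to 64.5) and GFP-low HSCs (32.6 to 50.2 against 12.4 to 30.1). B cell sums were higher in KO in GFP-low HSCs (29.5 to 33.3 against 34.6 to 54.6), and endothelial and stromal sums differed in total MPPs (13.5 to 15.7 against 9.07 to 12.0) and GFP-low HSCs (9.04 to 9.68 against 11.9 to 14.2). T and NK cell and epithelial sums overlapped in every table, as did these lists in the tables not given here. Their part in the differences was not tested.

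Once each library was set against the mean of its own group, which removes the KO difference, the 6 genes were correlated to unequal degrees. Tspan8 and Ces2g varied together, with r = 0.781 and rho = 0.625 over 40 libraries. The r was 0.911 in the 16 libraries of the first cohort, 0.707 in the 24 of the GFP cohort, and 0.659 without the 2 libraries farthest out in Tspan8. Ces2g was the 8th closest of 9339 genes to Tspan8. Cd24a followed both in the GFP cohort (r = 0.734 with Tspan8 and 0.683 with Ces2g) but not in the first (-0.02 and -0.06). Over all libraries these r were 0.464 and 0.462. Without the 2 libraries farthest out in Cd24a they were 0.248 and 0.288, and the farthest was KO replicate 3 of GFP-high MPPs. Vldlr ran against both in the first cohort (r = -0.71 with Tspan8 and -0.73 with Ces2g) but not in the GFP cohort (0.195 and 0.057). Over all libraries Selenom had r between -0.31 and 0.28 with each of the other 5 genes. In the first cohort alone it had 0.586 with Ces2g, 0.47 with Tspan8 and -0.55 with Vldlr, and in the GFP cohort -0.20, -0.37 and -0.13. Gpx8 had r between -0.38 and 0.28 over all libraries that list it. KO replicate 3 of GFP-low HSCs and of GFP-high MPPs stayed in the r of the GFP cohort alone. On the log2 scale their Tspan8 stood 0.83 and 1.04 above its group mean, and their Ces2g 0.78 and 1.05. The deviations of all genes in a library share its depth and cell makeup, so these r only describe the 40 libraries.

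**Figure D4:**
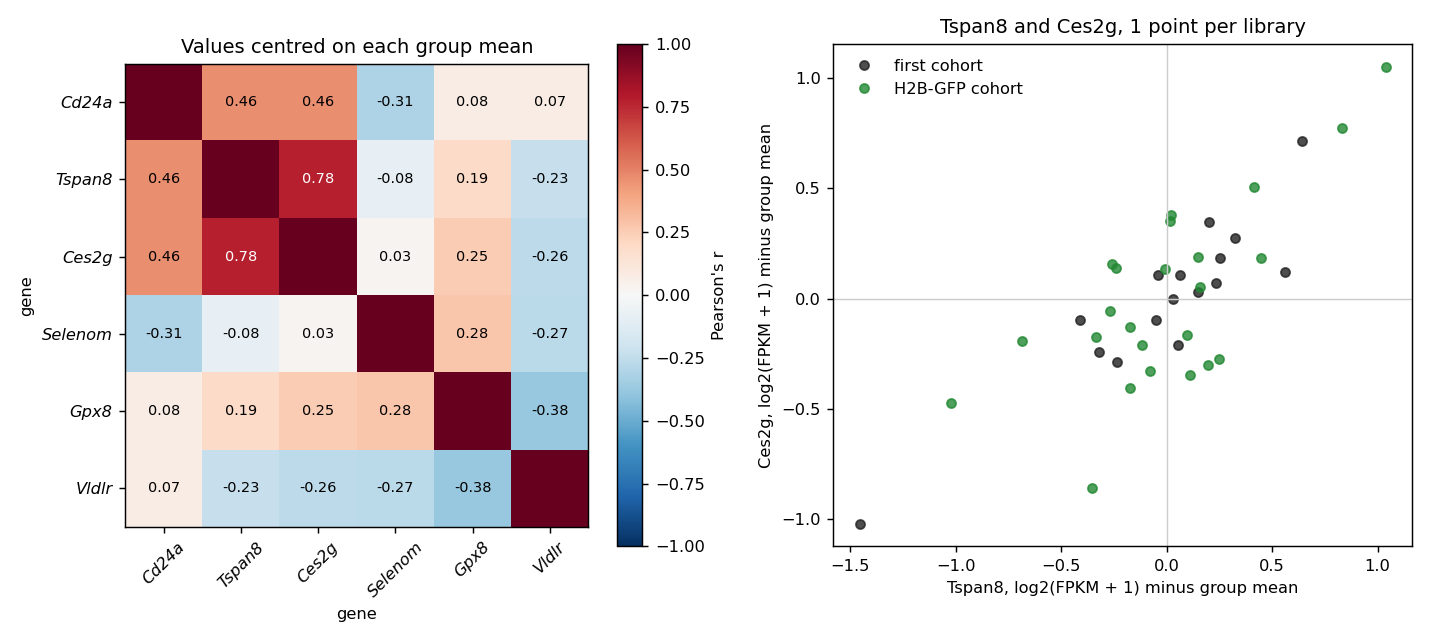
Left, Pearson's r (colour and number) between the 6 genes on log2(FPKM + 1) after each group mean was taken off, over 40 libraries, or 34 for pairs with Gpx8. Right, the same values of Tspan8 (x axis) and Ces2g (y axis) with 1 point per library, black for the first cohort and green for the GFP cohort, where r is 0.911 and 0.707.

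The genes most like each of the 6 in this sense differed in kind. For Tspan8 they were Rgcc (r = 0.84), Blvrb, biliverdin reductase B (0.834), and Slc38a5, an amino acid transporter (0.817). For Ces2g the closest genes given here were Car1, a carbonic anhydrase of red cells (0.833), and Ermap, an erythroid membrane protein (0.802). Car1 and Ermap are on the erythroid list above. For Selenom they were the ribosomal protein genes Rpl13 (0.703), Rps19 (0.621) and Rplp0 (0.608). For Cd24a they were Etf1, a translation release factor (0.728), Dstn, an actin-severing protein (0.70), and Tsg101, an endosomal sorting protein (0.689), the last with an r of 0.139 in the first cohort alone. For Vldlr they were Oas2, an interferon-induced gene (0.638), Car13, a carbonic anhydrase (0.616), and Fam92a (0.613). For Gpx8, over the 34 libraries that list it, they were Rab3ip (0.728), Stt3a, a subunit of the ER glycosylation complex (0.672), and Lmnb2, a nuclear lamin (0.657). The r of Stt3a was 0.138 in the first cohort alone.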

How the data were processed

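The authors deposited 6 FPKM tables, 1 for each sorted population, with 40 value columns that all belong to a sample (0 columns of no sample). Per the submitters' processing notes, STAR, DESeq2 and HOMER were used with the mm10 genome. Their versions, roles and settings are not given in the sources used here, nor is the strand setting. Per the labels' protocols, polyadenylated RNA was amplified with SMART-Seq2 and made into libraries with Nextera XT. The low values move in whole steps, which gave the reads behind each value and the depth.

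Within each table, limma (3.58.1, under R 4.3.3) compared KO with WT. The values were log2(FPKM + 1), and the fit was 2-sided and used an intensity trend, with Benjamini-Hochberg adjustment over all tested genes and a threshold of 0.05. A gene was tested if it had 1 FPKM in at least 4 libraries (first cohort) or 3 (GFP cohort). FPKM are not counts, so no count model was used. limma's voom on the recovered reads was added after the data were seen. The fit was checked on simulated data.

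The genes, the 6 pathway lists and the 11 marker lists were chosen with earlier results of these data known. Named beside the 6 genes are list genes that passed the test and, for each of the 6, the 3 genes with the highest r, of which 1 is not reported here. Libraries that share a replicate number were not treated as pairs. Each table was scaled by itself, so levels are tested only within a table. Sequences are from RefSeq and gene positions from GENCODE M21, both on GRCm38. Alternatives tried were a pseudocount of 0.1, no filter, no trend, rescaling to 1 total, a replicate block and leaving out each library.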

Additional observations from a re-analysis of the deposited data

Results flagged for a closer look

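In 24 groups of 4 libraries the highest or lowest value of 1 of the 6 genes was compared with its neighbour, and 5 values stood farther from the rest than Dixon's 95% limit allows. Chance flags about 1 in 20 such groups. Selenom was 20.81 FPKM in KO replicate 1 of total HSCs, where the next library had 17.8. Vldlr was 2.413 in KO replicate 3 of total HSCs, where the next had 2.24. Selenom was 2.546 in WT replicate 1 of total MPPs, where the next had 3.30. Gpx8 was 1.547 in KO replicate 3 of total MPPs, where the next had 0.125, and 0.07482 in WT replicate 3 of total MPPs, where the other 3 were listed at 0.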

How the results depend on the processing

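With 1 library left out, genes past the test numbered 9 to 17 in total HSCs, 0 to 205 in total MPPs, 0 to 1 in GFP-high HSCs, 0 to 6 in GFP-low HSCs, 0 to 1 in GFP-high MPPs and 0 to 31 in GFP-low MPPs, against 17, 15, 3, 0, 0 and 34. Of the 6 genes, 0 to 2 passed in total MPPs (0 with all libraries) and 0 to 1 in GFP-low MPPs (2 with all). Directions reversed for Ces2g without KO replicate 3 in GFP-high HSCs (-0.11, range -0.11 to 0.27) and GFP-high MPPs (-0.30, range -0.30 to 0.65). They also reversed for Gpx8 in GFP-low HSCs without KO replicate 3 (-0.21) or WT replicate 3 (-0.35), in a range of -0.35 to 0.49. The difference of KO effects of Cd24a reversed without GFP-high KO replicate 1 (-0.064, range -0.064 to 0.32). With no filter, 2 genes passed in total HSCs, 0 in total MPPs and 2 in GFP-low MPPs. There 0 of the 6 genes then passed, with Gpx8 now tested. Without the trend 12 genes passed in GFP-low MPPs, among them 1 of the 5 genes tested with the filter, Tspan8. Rescaling to 1 total gave 5 genes in total HSCs and 0 in GFP-high HSCs, and a pseudocount of 0.1 gave 7 in total MPPs. voom on recovered reads gave 27 genes in total HSCs and 115 in total MPPs, with 2 of the 5 genes there. Counts in the other populations under these 5 settings moved by no more than 1.5 times.

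The replicate block gave 10 genes in total HSCs, 137 in total MPPs with 3 of the 5 genes (Cd24a 0.0329, Vldlr 0.0395 and Selenom 0.0415 as adjusted p by limma), and 52 in GFP-low MPPs, with the same 2 of the 5 genes as without it (Tspan8 0.0160, Selenom 0.0373). Same-numbered WT and KO libraries deviated together by more than 0.1 in r for every number in none of the 6 tables, and not every KO library was closest to its own number in any of them. Within a table the numbers thus gave no clear pairing of WT with KO libraries, and the block is given as an alternative only. This comparison does not look across tables, so it cannot show whether libraries with one number in different populations share a mouse.

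Of the log2 differences of the 6 genes in HSCs, 206 of the alternative values moved by less than the spread between replicates, 10 by more, and 3 reversed. In MPPs, 164 kept direction and side of the threshold, 10 newly passed, 15 no longer passed, all in GFP-low MPPs, and 1 reversed. Precision was limited for Gpx8 by 2 to 73 reads per library in the HSCs of the GFP cohort, and for Tspan8 by 26 to 150 there. Levels under 1 FPKM are understated as folds.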
